A study of Mus musculus with 6 samples.

Results

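Nanophthalmos is an inherited condition in which the eye is very small but otherwise formed. Here 7 genes listed for it or for the related posterior microphthalmos in humans were followed in the mouse retina: Myrf, Tmem98, Mfrp, C1qtnf5, Best1, Prss56 and Crb1. They were chosen by gene symbol, and all 7 were found, each on a single row, in a deposited RNA-seq table of 55450 Ensembl genes. The samples are retinas of C57BL/6 mice at 8 weeks of age, 3 of them labelled Myrf-kd, which the study's design text calls Myrf +/−, and 3 wild type (WT). No label states what was altered in Myrf, or whether the samples are separate mice, so the p-values measure the spread between these samples, which may be partly technical.

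MYRF is made as a membrane-anchored protein that cuts itself, and the freed part enters the nucleus as a transcription factor, best known for switching on myelin genes in oligodendrocytes. TMEM98 binds MYRF and holds back that cut. MFRP, a receptor-like membrane protein, C1QTNF5, a secreted protein, and BEST1, a chloride channel, are known from the retinal pigment epithelium, the pigmented layer behind the photoreceptors. C1QTNF5 is known first for a late-onset retinal degeneration and can share a messenger RNA with MFRP. PRSS56 is a serine protease made by Mueller glia, the long support cells of the retina. CRB1 is a Crumbs protein of the adhesions between photoreceptors and Mueller glia at the outer edge of the retina.

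Coordinates are those of the table, on the build GRCm38. Myrf (ENSMUSG00000036098, chromosome 19, 10208272 to 10240748, minus strand) and Best1 (ENSMUSG00000037418, chromosome 19, 9985174 to 10001633, minus strand) are 206639 bases apart. Mfrp (ENSMUSG00000034739, chromosome 9, 44101729 to 44109187, plus strand) encloses C1qtnf5 (ENSMUSG00000079592, chromosome 9, 44107245 to 44109187, plus strand). Tmem98 (ENSMUSG00000035413) is on chromosome 11, 80810175 to 80822033, plus strand. Prss56 (ENSMUSG00000036480) is on chromosome 1, 87183313 to 87188405, plus strand. Crb1 (ENSMUSG00000063681) is on the same chromosome at 139197056 to 139377077, minus strand.

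Mfrp and C1qtnf5 are not independent in a table of genes. In the GENCODE annotation all 1589 exonic bases of C1qtnf5 lie in exons of Mfrp on the same strand, and they make up 36.7% of the exonic bases of Mfrp. RefSeq, on GRCm38.p6, also gives both genes the same promoter window, the 250 bases before and 50 bases after the transcription start. That window is shown because the 2 genes share it. Best1, the other pigment epithelium gene, and Tmem98, whose protein binds MYRF, are shown beside it. Capitals mark matches on either strand to CTGGCAC or CTGGTAC, the motif known for MYRF, to TAATCC, known for the homeodomain factors CRX and OTX2, and to CACGTG or CATGTG, known for MITF.
Mfrp and C1qtnf5, chr9:44101520-44101819, plus strand: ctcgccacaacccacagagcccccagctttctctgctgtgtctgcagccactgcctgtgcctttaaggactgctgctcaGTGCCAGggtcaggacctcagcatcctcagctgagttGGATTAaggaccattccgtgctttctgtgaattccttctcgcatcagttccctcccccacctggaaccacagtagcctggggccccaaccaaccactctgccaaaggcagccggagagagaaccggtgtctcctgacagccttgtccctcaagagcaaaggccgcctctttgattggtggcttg
Best1, chr19:10001584-10001883, minus strand: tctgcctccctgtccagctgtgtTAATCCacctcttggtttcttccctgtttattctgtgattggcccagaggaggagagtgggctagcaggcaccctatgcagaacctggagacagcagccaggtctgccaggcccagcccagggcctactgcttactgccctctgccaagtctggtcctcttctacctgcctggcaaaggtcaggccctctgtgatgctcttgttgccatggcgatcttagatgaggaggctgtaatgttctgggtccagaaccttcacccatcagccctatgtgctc
Tmem98, chr11:80810116-80810415, plus strand: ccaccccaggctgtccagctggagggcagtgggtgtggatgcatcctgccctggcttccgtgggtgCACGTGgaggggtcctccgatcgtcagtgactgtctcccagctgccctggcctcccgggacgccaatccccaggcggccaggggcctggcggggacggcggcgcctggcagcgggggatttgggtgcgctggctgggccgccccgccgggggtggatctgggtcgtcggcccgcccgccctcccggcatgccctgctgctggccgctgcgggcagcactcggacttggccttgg

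The window of Mfrp and C1qtnf5 holds 1 MYRF match, CTGGCAC read on the minus strand, with its leftmost base at −171 from the start, and 1 TAATCC match at −134. The Best1 window holds TAATCC at −227. Tmem98 and Crb1 each hold CACGTG, at −184 and −194, and the Prss56 window holds none of the motifs. These positions count from the RefSeq start, which lies 191 bases downstream of the table's start for Tmem98, so that its match is inside the gene as the table places it. For Mfrp the RefSeq start lies 41 bases downstream of the table's, and for C1qtnf5 it lies at the start of Mfrp, well upstream of the table's C1qtnf5. Of 32851 promoter windows of this length, 7.1% hold a MYRF motif, 7.06% hold TAATCC and 20.4% hold a MITF motif. A match is a run of letters and not a measured binding site. Windows were matched for 6 of the 7 genes, all but Myrf.

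**Figure D1:**
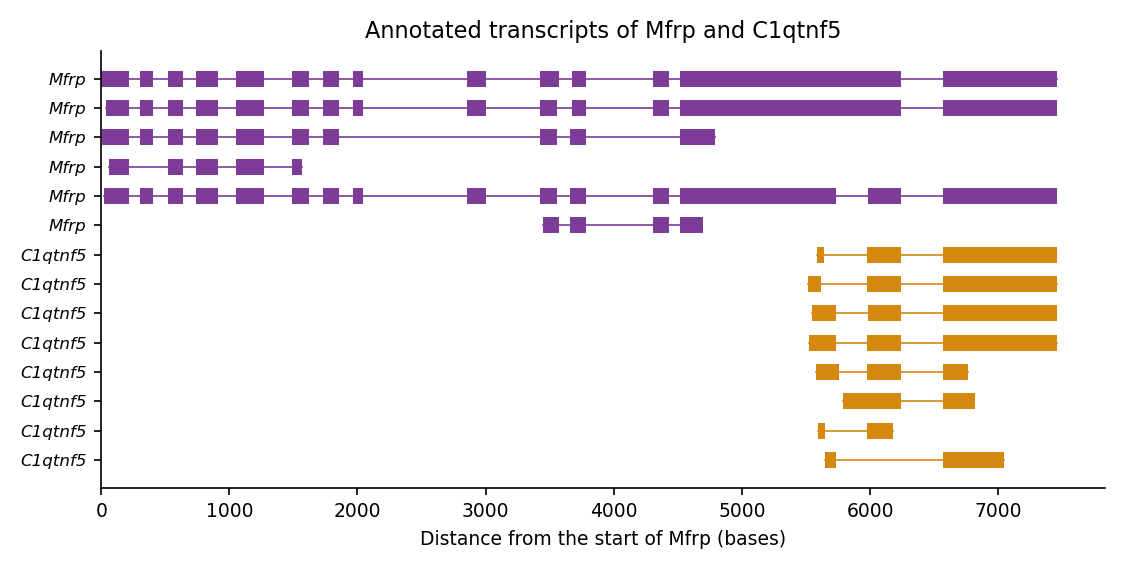
Annotated transcripts of Mfrp (6, purple) and C1qtnf5 (8, orange), with exons as boxes and introns as lines, against the distance from the start of Mfrp in bases. The C1qtnf5 exons lie over the last exons of Mfrp, where all 1589 exonic bases of C1qtnf5 are also exonic in Mfrp.

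The libraries held between 62092882 and 67766951 estimated count units in Myrf-kd and between 50695091 and 70298511 in WT, and about 4 units stand for 1 sequenced fragment. Levels are given in FPKM as deposited, fragments scaled by transcript length and library size, which can be compared between genes. Differences were tested on the estimated counts with edgeR, over 13676 genes, and are shown in CPM, units scaled by the normalised library total. The defining rod gene Gnat1 ranged from 2926 to 3316 FPKM in Myrf-kd and from 3174 to 3329 FPKM in WT. The labelled tissue was thus evident in all 6 libraries. Rod genes were not all even: the rod arrestin gene Sag had 574, 568 and 402 FPKM in the Myrf-kd libraries 1, 2 and 3. In the WT libraries Sag had 566, 594 and 629 FPKM, so Myrf-kd 3 was the lowest. Pigment epithelium RNA was present too, with the retinoid isomerase gene Rpe65 between 5.97 and 12.6 FPKM in Myrf-kd and between 10.6 and 14.8 FPKM in WT. By Xist and Y-linked genes Myrf-kd 3 and WT 3 are female and the other 4 libraries male. Myrf-kd 3 stood apart on component 1 of a principal component analysis, which carried 29.5% of the variance. Its score was 37.1, against −17.3 to −2.26 for the other 5 libraries. Component 2 carried 22.5% and divided the WT libraries, with WT 1 at 8.32, WT 2 at −13.2 and WT 3 at −24.1. On it Myrf-kd 1, 2 and 3 had 10.6, 20.9 and −2.52. In bulk tissue, fewer cells of a type and less RNA per cell cannot be told apart.

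The 7 genes spanned a wide range of levels in the retina. Crb1 was the most abundant of them at a mean of 26.8 FPKM over the 6 libraries, with 1397 genes of the table above it. Tmem98 followed at 6.47 FPKM, Prss56 at 1.33 FPKM and Mfrp at 1.23 FPKM. C1qtnf5 at 0.689 FPKM, Myrf at 0.372 FPKM and Best1 at 0.182 FPKM were the least abundant. Crb1 exceeded Tmem98 4.14-fold and Tmem98 exceeded Prss56 4.87-fold, in all 6 libraries and with no overlap. Prss56 and Mfrp did not differ beyond their spread, since Prss56 was the higher in 4 of 6 libraries. Mfrp was above C1qtnf5 in all 6 libraries, although their ranges over libraries overlapped, and C1qtnf5 was above Myrf in 5 of 6. As the exons of C1qtnf5 lie within those of Mfrp, the levels of both depend on how reads were shared between them, which is not stated. Myrf was above Best1 in all 6, with its lowest library at 0.279 FPKM and the highest of Best1 at 0.254 FPKM.

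**Figure D2:**
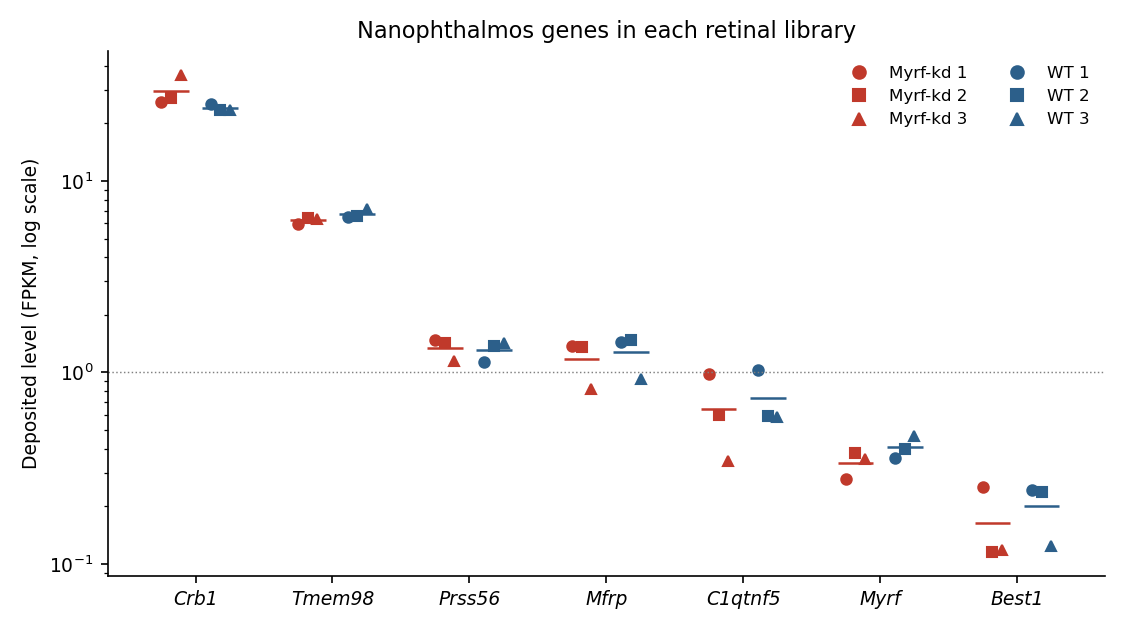
FPKM of each gene (log scale) in the 3 Myrf-kd libraries (red, left) and the 3 WT libraries (blue, right), with symbols for the replicate number, group means as bars and a dotted line at 1 FPKM, the limit used for testing. Crb1 and Tmem98 lie above the line in all libraries, Myrf and Best1 below it, and of the 7 genes the groups stand clear of each other for Crb1 and Tmem98.

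Whether the 7 genes differ in level in the Myrf +/− retina was tested in 1 comparison, Myrf-kd against WT. None of the 7 passed at an adjusted p of 0.05: 0 were called higher and 0 lower by edgeR, where 0.0292% of all genes fitted were called higher and 0.0146% lower, 0.0439% in all. At an unadjusted p under 0.05 edgeR gave 0 of the 7, beside 7.47% of all genes. DESeq2 called 0 after adjustment and had only Crb1 under 0.05 before it, and limma on log2(FPKM + 1) gave 0 by either. The share of all genes under 0.05 before adjustment by DESeq2 is not given here, so Crb1 cannot be set beside it. After adjustment DESeq2 called 53 of all genes, against 6 by edgeR. Estimates were lower in Myrf-kd for 5 genes and higher for 2, with a median log2 fold change of −0.14, against 0.00 over all genes fitted. The groups did not overlap for Tmem98, lower in Myrf-kd, and for Crb1, higher in Myrf-kd, on both the FPKM and the count scale. Of all genes fitted, 7.49% did not overlap in the lower and 7.14% in the higher direction, and with 7 genes a count of 1 in each direction is no more than a description.

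Myrf itself was low in every retina. Its level was 0.279, 0.382 and 0.351 FPKM in the Myrf-kd libraries 1, 2 and 3, against 0.359, 0.397 and 0.463 FPKM in the WT libraries 1, 2 and 3. The lowest library was a Myrf-kd one and the highest a WT one, but the groups overlapped, as Myrf-kd 2 lay above WT 1. By the fit Myrf-kd stood at 81.9% of the WT level, and the 95% interval ran from 59.6% to 112.6% (edgeR adjusted p = 0.732). Few fragments carry these values, 45 to 60 per library in Myrf-kd and 50 to 80 in WT. Counting alone gives a coefficient of variation of 13.6% in Myrf-kd and 12.7% in WT, and the observed ones were 15.1% and 13.6%, so the spread of Myrf among replicates was about that of counting. The reads are summed over the whole gene and its 6 annotated transcripts, so RNA of an altered copy could be counted too and these values do not check the genotype.

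Tmem98, whose protein binds MYRF, had the smallest standard error of the 7 genes. It reached 5.96, 6.40 and 6.34 FPKM in the Myrf-kd libraries 1, 2 and 3, against 6.46, 6.54 and 7.12 FPKM in the WT libraries 1, 2 and 3. All Myrf-kd libraries lay below all WT libraries, by a narrow margin: the highest Myrf-kd library stood at 93.6% of the WT mean in CPM, and the lowest WT library at 94.9%. The log2 fold change was −0.12 ± 0.10 (SE; edgeR adjusted p = 0.762), which places the Myrf-kd level between 77.8% and 108% of WT. By exact permutation (two-sided) p was 0.1, the smallest that 3 libraries against 3 allow. The replicates varied by 3.12% in Myrf-kd and 5.72% in WT. Counting 157 to 233 fragments per library gives 7.23% and 7.15% on average, so the margin between the groups is smaller than the counting error of a single library.

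The pigment epithelium genes varied more between libraries than between genotypes. Mfrp reached 1.37, 1.35 and 0.820 FPKM in the Myrf-kd libraries 1, 2 and 3, against 1.44, 1.48 and 0.928 FPKM in the WT libraries 1, 2 and 3. The low library of each group was number 3, the female one, and the remaining 4 libraries lay close together. The spread of Mfrp, 26.0% in Myrf-kd and 23.9% in WT, was more than counting gives (10.2% and 10.1%). Its log2 fold change was −0.14 ± 0.27 (SE; edgeR adjusted p = 0.907), and it turned to 0.07 without Myrf-kd 3. With 2 female libraries, 1 in each group, a part of sex in this was not tested. On the opposite strand Rnf26, a ubiquitin ligase gene at a higher level, shares 54 exonic bases with Mfrp, and whether strand was used in counting is not stated.

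C1qtnf5 reached 0.980, 0.598 and 0.344 FPKM in the Myrf-kd libraries 1, 2 and 3, against 1.03, 0.596 and 0.588 FPKM in the WT libraries 1, 2 and 3. Its highest libraries were Myrf-kd 1 and WT 1, whereas Mfrp was as high in Myrf-kd 2 and WT 2. The ratio of Mfrp to C1qtnf5 in FPKM therefore moved between libraries: it was 1.39, 2.26 and 2.39 in the Myrf-kd libraries and 1.40, 2.48 and 1.58 in the WT libraries 1, 2 and 3. No source used here states how reads were shared between the overlapping genes, and between 11 and 31 fragments per library were assigned to C1qtnf5. The log2 fold change of C1qtnf5 was −0.21 ± 0.42 (SE; edgeR adjusted p = 0.909), and it turned to 0.08 without Myrf-kd 3 and 0.10 without WT 1. The interval, 43.1% to 173% of WT, held both 50% and 100%.

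Best1 was the least abundant of the 7 genes, with about 6 to 12 fragments per library. It reached 0.254, 0.116 and 0.119 FPKM in the Myrf-kd libraries 1, 2 and 3, against 0.243, 0.238 and 0.124 FPKM in the WT libraries 1, 2 and 3. Myrf-kd 1, WT 1 and WT 2 were high and the other 3 libraries low, so the groups overlapped. The log2 fold change was −0.32 ± 0.44 (SE; edgeR adjusted p = 0.858), with an interval from 39.1% to 165% of WT. A level of 50% of WT lay within that interval. Counting alone gives a coefficient of variation of 35.4% in Myrf-kd and 33.0% in WT, and the observed ones were 47.2% and 33.4%.

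**Figure D3:**
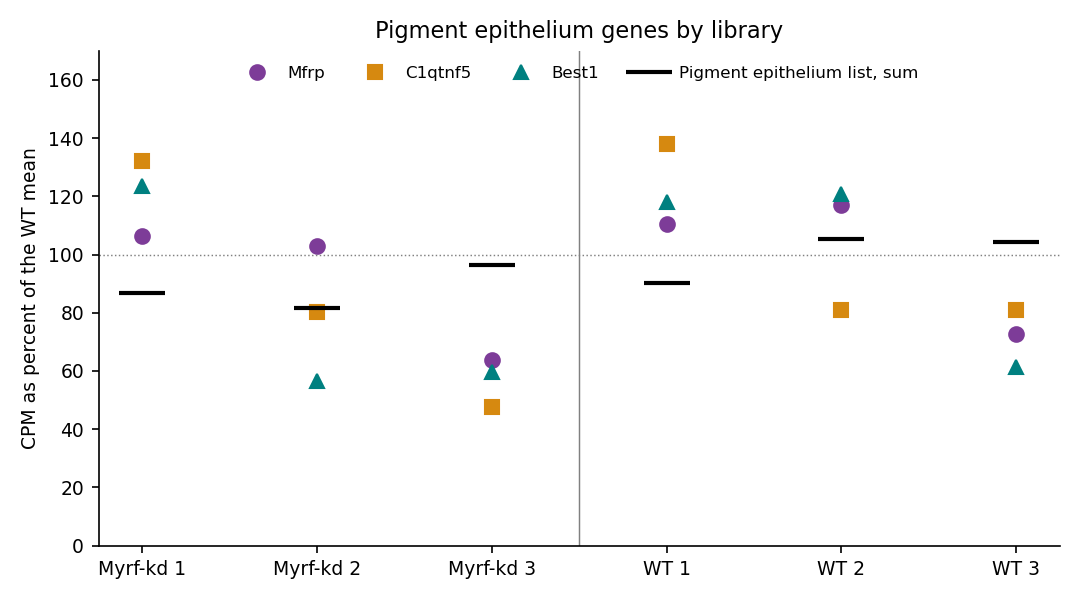
CPM of Mfrp (circles), C1qtnf5 (squares) and Best1 (triangles) in each library as a percentage of the WT mean, Myrf-kd libraries left of the line and WT libraries right of it, with bars for the sum of the 21 pigment epithelium markers, Trpm1 and Otx2 included. In Myrf-kd 3, Mfrp, C1qtnf5 and Best1 sit at 63.7%, 47.6% and 59.6% while the marker sum is at 96.3%. WT 3 also has all 3 genes below its marker sum, at 72.6%, 80.8% and 61.5% against 104.3%, so this is not particular to Myrf-kd.

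The pigment epithelium genes were set beside 21 other markers of that layer, some of which the neural retina expresses too. Their summed level was 553, 520 and 613 CPM in the Myrf-kd libraries 1, 2 and 3, against 576, 671 and 665 CPM in the WT libraries, so the groups overlapped. Trpm1, a channel gene also expressed by bipolar cells, and Otx2, a homeodomain gene also expressed by photoreceptors and bipolar cells, made up at least 50.8% of this sum in each library. The other 19 markers summed to 246, 208 and 268 CPM in the Myrf-kd libraries, against 257, 268 and 327 CPM in the WT libraries, and the groups overlapped again. Rpe65, the defining gene of the layer, had 5.97, 8.98 and 12.6 FPKM in the Myrf-kd libraries 1, 2 and 3, against 10.6, 11.8 and 14.8 FPKM in the WT libraries. It was lowest in Myrf-kd 1, the library with the highest Best1. Of 13 markers above the limit, 10 had lower and 3 higher estimates (median log2 fold change −0.25). None of the 13 passed by edgeR, DESeq2 or limma. Over all 11 gene lists used here, edgeR gave an unadjusted p under 0.05 for 8 of 110 tested entries, beside 7.47% of all genes. In this list 1 marker had such a p, the lactate transporter gene Slc16a8. It averaged 2.75 ± 0.541 CPM in the Myrf-kd libraries, against 4.11 ± 0.377 CPM in the WT libraries (SD, n = 3 each; edgeR adjusted p = 0.666).

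Set against the marker sum of the same library, with or without Trpm1 and Otx2, the genotypes overlapped for all 3 genes. Per 1000 CPM of all 21 markers, Mfrp had 12.5, 12.9 and 6.77 CPM in the Myrf-kd libraries 1, 2 and 3, against 12.5, 11.4 and 7.13 CPM in the WT libraries. The female libraries stayed low on this scale. C1qtnf5 averaged 2.18 ± 1.12 per 1000 in the Myrf-kd libraries, against 2.24 ± 0.954 in the WT libraries (SD, n = 3 each). Best1 averaged 0.885 ± 0.431 per 1000 in the Myrf-kd libraries, against 0.984 ± 0.365 in the WT libraries (SD, n = 3 each). Two-sided p-values by exact permutation of the log2 ratios were 0.8 for Mfrp, 0.9 for C1qtnf5 and 1.0 for Best1. Per 1000 CPM of the 19 markers, Mfrp had 28.2, 32.3 and 15.5 CPM in the Myrf-kd libraries 1, 2 and 3, against 28.1, 28.4 and 14.5 CPM in the WT libraries, and exact permutation gave 0.6 for Mfrp, 0.9 for C1qtnf5 and 1.0 for Best1.

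Prss56, the protease of Mueller glia, had the smallest difference of the 7 genes. It reached 1.47, 1.42 and 1.15 FPKM in the Myrf-kd libraries 1, 2 and 3, against 1.14, 1.38 and 1.43 FPKM in the WT libraries 1, 2 and 3. The groups covered nearly the same range, and the low library was number 3 in Myrf-kd and number 1 in WT. Its log2 fold change was 0.01 ± 0.19 (SE; edgeR adjusted p = 0.986), with an interval from 74.1% to 138% of WT, and its sign turned without Myrf-kd 1, Myrf-kd 2 or WT 1. The replicates varied by 12.9% in Myrf-kd and 12.8% in WT, about what counting gives (13.5% and 14.0%).

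Crb1, the polarity gene, had the smallest p of the 7, and 1 library set much of its difference. It reached 25.8, 27.1 and 35.9 FPKM in the Myrf-kd libraries 1, 2 and 3, against 25.1, 23.4 and 23.5 FPKM in the WT libraries 1, 2 and 3. All Myrf-kd libraries lay above all WT libraries, but Myrf-kd 1 exceeded WT 1 only slightly, and Myrf-kd 3 reached 148% of the WT mean in CPM. The log2 fold change was 0.28 ± 0.13 (SE; edgeR adjusted p = 0.685), and its p ranked 1274 among the 13676 genes. Without Myrf-kd 3 it was 0.12, and in the 4 male libraries 0.10. Between 4973 and 10196 fragments per library were assigned to Crb1. The replicates varied by 18.8% in Myrf-kd and 2.68% in WT, where counting gives 1.11% and 1.27%.

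**Figure D4:**
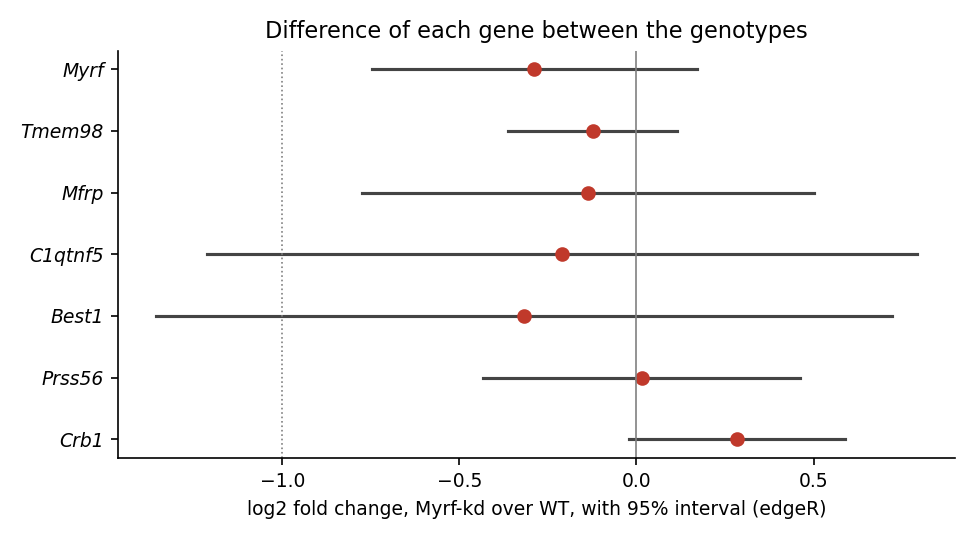
Log2 fold change of each gene, Myrf-kd over WT, with its 95% interval from edgeR, a solid line at no change and a dotted line at 50% of WT. Every interval crosses no change, and those of C1qtnf5 and Best1 also cross the line at 50%.

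The intervals give the levels that the fit allows for each gene. A level of 50% of WT lay outside the interval for 5 of the 7 genes and inside it for C1qtnf5 and Best1. The narrowest interval was that of Tmem98, and that of Crb1 ran from 98.5% to 150% of WT. For Mfrp it ran from 58.5% to 141.5% of WT. None of these intervals shows that a gene was at the same level in both genotypes.

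**Figure D5:**
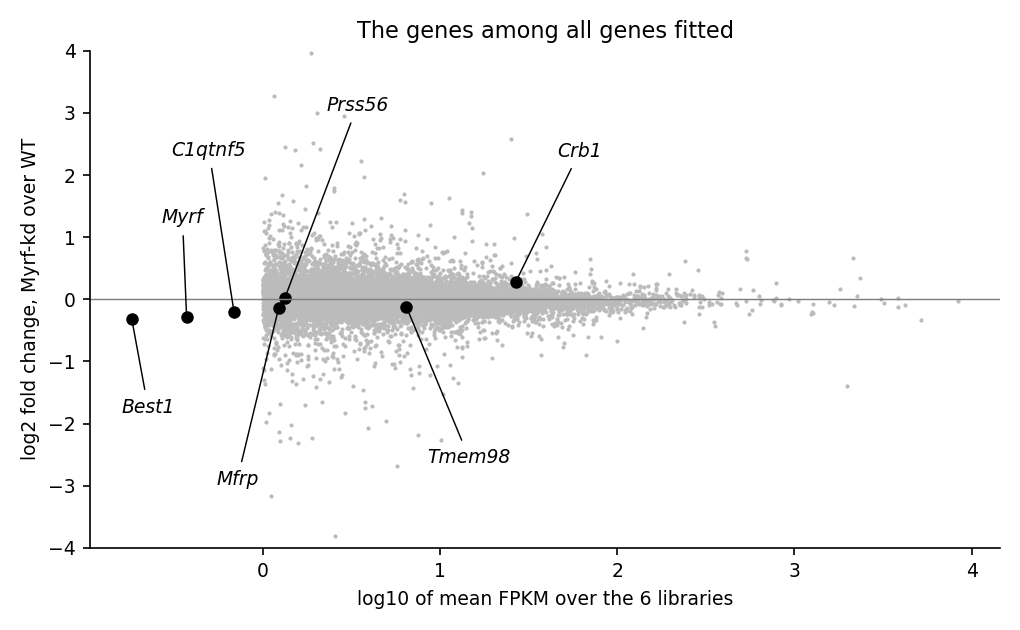
Log2 fold change, Myrf-kd over WT, against the log10 of mean FPKM for all 13676 genes fitted (grey), with the 7 genes in black; 5 genes lie beyond the plotted limit of 4. Crb1, Tmem98, Prss56 and Mfrp sit within the cloud of genes, and Myrf, C1qtnf5 and Best1 lie left of the limit of 1 FPKM, where no other gene was fitted.

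The partners of Crb1 at the apical junction gave no call. Of 22 genes of the Crumbs and Par complexes and their junctions, 21 were above the limit, 7 with higher and 14 with lower estimates in Myrf-kd (median log2 fold change −0.03). None passed by edgeR, DESeq2 or limma, and edgeR gave 0 at an unadjusted p under 0.05. The smallest p belonged to Prkcz, an atypical protein kinase C gene, which averaged 147 ± 13.1 CPM in the Myrf-kd libraries, against 163 ± 6.05 CPM in the WT libraries (edgeR adjusted p = 0.697). Lin7a, a scaffold gene, stood at 19.1, 18.8 and 21.5 CPM in Myrf-kd libraries and 18.5, 18.4 and 14.8 CPM in WT libraries 1, 2 and 3, a narrow separation of the groups like that of Crb1 (edgeR adjusted p = 0.712).

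Markers of Mueller glia, which express Prss56 and Crb1, gave no call. The 19 markers found summed to 6233 to 6725 CPM in Myrf-kd and 6342 to 6885 CPM in WT, with 8 higher and 11 lower estimates (median log2 fold change −0.01) and 0 passing by edgeR, DESeq2 or limma. By edgeR 1 of the 19 had an unadjusted p under 0.05, beside 7.47% of all genes, the potassium channel gene Kcnj2. It averaged 12.7 ± 0.536 CPM in the Myrf-kd libraries (SD, n = 3), and the WT libraries lay below all of these at 9.97, 9.52 and 10.5 CPM (edgeR adjusted p = 0.666). Rlbp1, a retinaldehyde-binding protein gene, separated the other way, with 309, 291 and 298 CPM in the Myrf-kd libraries, against 315, 330 and 359 CPM in the WT libraries (edgeR adjusted p = 0.666). The marker sum of these glia overlapped between the genotypes as Prss56 did.

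Oligodendrocytes are the best known setting of MYRF, and the mouse retina normally holds few of them. Of 20 of their genes 5 were above the limit, and the lineage genes Olig1 and Olig2 were at 0 in every library. All 5 had lower estimates in Myrf-kd (median log2 fold change −0.16), and 0 passed by edgeR, DESeq2 or limma. By edgeR 1 of the 5 had an unadjusted p under 0.05, beside 7.47% of all genes. This was the transferrin gene Trf, which other retinal cells express too. Trf averaged 118 ± 2.92 CPM in the Myrf-kd libraries, against 153 ± 16.7 CPM in the WT libraries (SD, n = 3 each; edgeR adjusted p = 0.666). Summed, the 20 genes reached 265 to 277 CPM in Myrf-kd and 291 to 338 CPM in WT without overlap, and Trf made up the greater part of the difference. The separation rested on Trf. Myrf-kd 3 summed to 276.8 CPM, of which Trf was 114.8, and WT 1 to 290.9 CPM, of which Trf was 135.0. Without Trf, Myrf-kd 3 thus lies above WT 1 and the groups overlap. The myelin gene Mbp averaged 46.2 ± 2.55 CPM in the Myrf-kd libraries, against 51.3 ± 3.83 CPM in the WT libraries (edgeR adjusted p = 0.703).

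Relatives of the 7 genes were mostly below the limit. Of 14 paralogs and relatives 3 were above it, 1 with a higher and 2 with lower estimates (median log2 fold change 0.00), and 0 passed by edgeR, DESeq2 or limma (by edgeR 0 had an unadjusted p under 0.05). The MYRF paralog Myrfl, the bestrophin genes Best2 and Best3, and Corin, which like Mfrp encodes frizzled-type domains, were among those below. C1qtnf12, a secreted relative of C1qtnf5, averaged 12.9 ± 1.31 CPM in the Myrf-kd libraries, against 12.9 ± 1.16 CPM in the WT libraries (edgeR adjusted p = 1.00).

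In mice Mfrp has been linked to the receptor gene Adipor1 and to very long chain lipids. The 10 genes listed for this were all above the limit, 3 with higher and 7 with lower estimates in Myrf-kd (median log2 fold change −0.02), and 0 passed by edgeR, DESeq2 or limma (0 at an unadjusted p under 0.05 by edgeR). Adipor1 reached 103.5, 100.4 and 106.5 FPKM in the Myrf-kd libraries, against 101.0, 111 and 99.6 FPKM in the WT libraries 1, 2 and 3. The fatty acid elongase gene Elovl2 had 131, 114 and 117 CPM in the Myrf-kd libraries, against 134, 34.9 and 26.6 CPM in the WT libraries 1, 2 and 3. WT 1 was just above the Myrf-kd libraries while WT 2 and WT 3 were far below them, so the groups overlapped (edgeR adjusted p = 0.725).

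Of 22 other genes of small eyes in humans, most of them developmental regulators, 15 were above the limit. Estimates were higher in Myrf-kd for 6 and lower for 9 (median log2 fold change −0.05), and 0 passed by edgeR, DESeq2 or limma. By edgeR 1 of the 15 had an unadjusted p under 0.05, beside 7.47% of all genes, the transcription factor gene Pax6. It had 189, 235 and 203 CPM in the Myrf-kd libraries 1, 2 and 3, against 176, 186 and 176 CPM in the WT libraries (edgeR adjusted p = 0.666). Every Myrf-kd library lay above every WT library for Pax6, narrowly for Myrf-kd 1.

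RNA of tissue around the retina differed between the libraries in which the 7 genes were measured. Of 13 cornea and surface epithelium genes 4 were above the limit, and all 4 had lower estimates (median log2 fold change −1.96). By edgeR 3 of the 4 had an unadjusted p under 0.05, beside 7.47% of all genes, and 0 passed by edgeR, DESeq2 or limma. Their list summed to 6.74 ± 1.72 CPM in the Myrf-kd libraries, against 23.4 ± 5.01 CPM in the WT libraries (SD, n = 3 each), without overlap. Aldh3a1, an aldehyde dehydrogenase gene of the cornea, averaged 1.35 ± 0.771 CPM in the Myrf-kd libraries, against 4.37 ± 0.979 CPM in the WT libraries (edgeR adjusted p = 0.666). The 16 lens genes summed to 2.76, 1.74 and 81.8 CPM in the Myrf-kd libraries 1, 2 and 3, against 25.4, 19.2 and 29.5 CPM in the WT libraries. Of these 6 were above the limit, 5 with higher and 1 with lower estimates, 0 at an unadjusted p under 0.05 by edgeR and 0 passing by any tool. Myrf-kd 1 and 2 summed below every WT library and Myrf-kd 3 above, so the Myrf-kd libraries did not share 1 direction. Myrf-kd 3 thus held the most lens RNA, together with the highest Crb1 and the lowest Mfrp and C1qtnf5 of the 6 libraries. The part of such tissue in the values of the 7 genes was not tested.

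The summed ciliary body and iris markers overlapped between the groups, as did the summed fibroblast and sclera markers. The 14 ciliary body and iris genes summed to 455 to 503 CPM in Myrf-kd and 438 to 490 CPM in WT. The gene Optc, which encodes the vitreous protein opticin, had 20.9, 1.47 and 2.03 CPM in the Myrf-kd libraries 1, 2 and 3, against 2.17, 1.70 and 1.56 CPM in the WT libraries, so Myrf-kd 1 alone was high. The 13 fibroblast and sclera genes summed to 84.0 to 147 CPM in Myrf-kd and 120 to 123 CPM in WT. Col5a1, a fibrillar collagen gene, averaged 12.5 ± 1.04 CPM in the Myrf-kd libraries, against 17.3 ± 2.10 CPM in the WT libraries (edgeR adjusted p = 0.666). Unlike the sums, Col5a1 did not overlap, being lower in every Myrf-kd library than in every WT library. Of these 2 lists, with 7 genes tested in each, 0 passed by edgeR, DESeq2 or limma. Only Col5a1 had an unadjusted p under 0.05 by edgeR, beside 7.47% of all genes.

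Genes whose levels moved across the libraries most like each of the 7 were named by Pearson's r of log2(CPM + 0.5) over the 6 libraries, among 11686 genes or more. The pattern of Myrf was nearest to those of Idh1, a cytosolic isocitrate dehydrogenase gene, and Smap1 (r = 0.98 for both). Tmem98 was nearest to mt-Nd2, a mitochondrial gene of respiratory complex I, and Samd11 (r = 0.99 for both). Mfrp was nearest to Cadps, a vesicle priming gene, and Cys1 (r = 0.99 for both). For C1qtnf5 these were Adipor2, an adiponectin receptor gene (r = 0.99), and the acyltransferase gene Lpcat3 (r = 0.98). Best1 was nearest to Gpcpd1 and the ubiquitin ligase gene Rnf8 (r = 0.99 for both), and Prss56 to the growth factor gene Ptn and the kinase gene Nek7 (r = 0.99 for both). Crb1 was nearest to the phosphatase gene Dusp5 (r = 0.998) and to Dffa (r = 0.995), and 115 genes had an r of at least 0.95 with it, against 9 to 47 for the other 6. Each named gene was picked as the nearest of 11686 or more over only 6 libraries. Such a pick has a high r also without a link between the genes, and no link was tested. CPM are scaled for depth, but all genes of a library share its tissue, and Myrf-kd 3 was the highest library of Crb1.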

How the data were processed

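Total RNA of 6 mouse retina samples was sequenced with standard Illumina protocols, per the labels. The submitters' processing notes name StringTie 1.3.0, HISAT2 2.0, Bowtie 0.12.2 and GRCm38, without saying what each did. For each gene and library the authors deposited an FPKM and a count, per the file headers, and the deposited counts were treated as estimated counts. The FPKM values are scaled for length and library size by the authors. The counts are whole numbers, so rounding changed none, and about 4 units stand for 1 fragment, which was read from the values. How reads of overlapping genes were shared, and whether strand was used, is stated nowhere in these sources.

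From these the main test was run with edgeR 4.0.16 in R 4.3.3 (quasi-likelihood, TMM factors, two-sided, Benjamini-Hochberg over 13676 genes, threshold 0.05), with genotype as the only term. A mean FPKM of 1 or more let 13673 genes in, and Myrf, C1qtnf5 and Best1 were added although they lie below that limit. edgeR estimated a biological coefficient of variation of 20.3% (prior degrees of freedom 2.84). CPM are units over the TMM-normalised library total. Exact permutation tests used scipy 1.17.1. Counting errors take fragments as independent and cover counting only. Alternatives were DESeq2 1.42.0, limma 3.58.1 on log2(FPKM + 1) or log2(FPKM + 0.1), other scalings and filters, a replicate block, a sex term, males alone, the omission of each library and, chosen after the values were seen, a shorter pigment epithelium list.

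The 7 genes and 11 gene lists (185 symbols, 184 of them in the table, 110 tested) were chosen with earlier results of these data known. The rule for named genes took all 7 genes, up to 3 genes of each list with the smallest p, and the 2 genes with the most similar pattern. Myrfl, Best2, Best3, Corin, Adipor1, Otx2, Olig1 and Olig2 were named outside that rule, after their values were seen, as were Gnat1, Sag, Rpe65, Xist and Rnf26. No 2 libraries agreed within sampling noise (chi-square over its degrees of freedom 18.5 or more). Promoter sequences are from RefSeq on GRCm38.p6. All 7 genes start and end as in the GENCODE annotation except Crb1, whose end lies 23 bases further there.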

Additional observations from a re-analysis of the deposited data

How the results depend on the processing

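The count of the 7 genes called was 0 in every alternative run. Over 16 alternatives on the count scale, Myrf lay between −0.379 and −0.171 (log2 fold change, Myrf-kd over WT), Tmem98 between −0.160 and −0.0776, Best1 between −0.771 and −0.124 and Crb1 between 0.104 and 0.370, all without a change of sign. The 2 limma fits kept these signs. Their differences are of log2(FPKM + offset), which understates low genes: with an offset of 0.1 both Myrf and Best1 were at −0.214, and with 1, above their levels, at −0.0728 and −0.0484. Leaving out 1 library at a time gave −0.322 to 0.0656 for Mfrp, −0.649 to 0.0954 for C1qtnf5 and −0.0883 to 0.117 for Prss56, so these 3 changed sign. Relative to the pigment epithelium markers the same omissions gave −0.211 to 0.34 for Mfrp (0.037 with all libraries), −0.478 to 0.333 for C1qtnf5 (−0.102) and −0.548 to 0.052 for Best1 (−0.176). With the marker list less Trpm1 and Otx2, chosen after seeing the data, these were 0.095, −0.044 and −0.118. The summed ciliary body and iris list differed by 0.029 on the log2 scale in CPM and by 0.137 in FPKM, and the cause was not tested.

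Over all genes, edgeR called 6, and 9 to 16 when 1 library was left out. It called 2 at a mean FPKM of at least 5, where 7652 genes were tested, and 22 in the 4 male libraries alone. DESeq2 called 53. Over all genes, libraries of the same replicate number showed little shared deviation from their group means (correlations of −0.046, 0.0292 and 0.102 for numbers 1, 2 and 3). The numbers did line up by sex, with number 3 female in both groups, and a pairing was not excluded. With the replicate block 0 genes passed by edgeR, and the log2 fold changes were −0.291 for Myrf, −0.122 for Tmem98, −0.143 for Mfrp, −0.274 for C1qtnf5, −0.341 for Best1, 0.0140 for Prss56 and 0.267 for Crb1. Counting error is largest for Best1 (6 to 12 fragments per library) and C1qtnf5 (11 to 31).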
